A study of Homo sapiens with 24 samples.

Results

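The genes described here are 10 components of proximal B-cell receptor signalling (CD79A, CD79B, SYK, LYN, BLK, BLNK, PLCG2, PRKCB, PRKCD and VAV1), with the super-enhancers that lay at them in WT OCI-Ly7 cells. A super-enhancer was assigned to a gene when it overlapped the gene body extended by 50 kb on each side, with gene bodies from GENCODE version 44 on hg38. In total, 16 of 2615 super-enhancers were assigned to 9 of the 10 genes, and the annotation held 19970 protein-coding genes.

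OCI-Ly7 is a germinal center B-cell-like diffuse large B-cell lymphoma line, and WT denotes clones that went through CRISPR editing as non-edited controls. CUT&RUN, in which an antibody guides a nuclease to a histone mark, was applied to 24 samples: 3 marks in 4 genotypes with 2 replicates each. The edited clones are labelled C_hom_KI (a homozygous inactivating CREBBP mutation, C), K_hom_KO (KMT2D knockout, K) and CK_hom_KI_KO (both, CK). These genotypes and the marks H3K4me1 and H3K4me3 have no value in the table analysed here. The 2 WT replicates of H3K27ac, a mark of active enhancers and promoters, were combined into 1 signal column, so the values carry no replicate error and no difference was tested.

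The B-cell receptor is a membrane immunoglobulin bound to the CD79A and CD79B chains, whose cytoplasmic tails carry tyrosine motifs. On antigen binding, Src-family kinases such as LYN and BLK phosphorylate these motifs, and the kinase SYK docks there and is activated. SYK phosphorylates the adaptor BLNK, which assembles phospholipase C gamma (PLCG2) and the exchange factor VAV1, and the lipid products of PLCG2 activate protein kinase C. B cells need signals of this pathway for survival, and germinal center lymphomas depend on it to different degrees.

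Of the 10 genes, 9 had a super-enhancer within 50 kb, whereas 30.7% of all protein-coding genes did. Since long genes offer more room for an overlap, all protein-coding genes were also split by length into 10 groups of 1997. In the group that held each member, the share with a super-enhancer within 50 kb ran from 19.0% for CD79B to 37.6% for SYK and LYN. These groups match length only roughly. CD79B, at 3.60 kb, was near the upper limit of its group (3.635 kb), and the next group had 25.5%. The group of PLCG2 and PRKCB (28.5%) spanned 161.58 to 2473.5 kb. A super-enhancer overlapped the gene body itself for 7 of the 10 genes (17.3% of all genes). The GENCODE gene start lay inside a super-enhancer for 2, SYK and PRKCD (7.81% of all genes). The PRKCD region nevertheless ended upstream of the canonical transcript of PRKCD. LYN, BLNK, PRKCB, PRKCD and VAV1 had 2 or more super-enhancers (5 of 10 genes, 7.34% of all genes). LYN and BLNK had 3 each (2 of 10, 1.12% of all genes). For 7 of the 10 genes, at least 1 assigned super-enhancer had no other protein-coding gene with a nearer start (13.1% of all genes). These genes were chosen with earlier results of the same data known, so the shares describe them and are not evidence that the pathway as a whole is set apart.

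**Figure D1:**
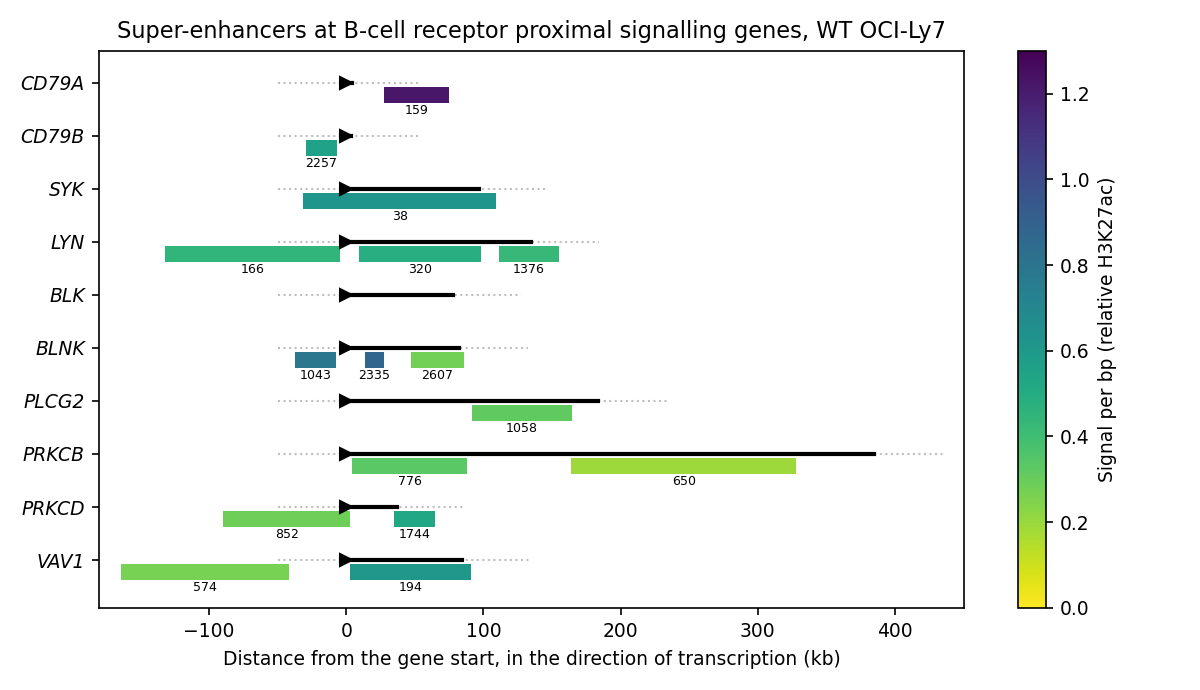
Each line shows 1 gene as a black bar from its start (arrowhead) to its end in kb along the direction of transcription, with the 50 kb window as a dotted line; coloured boxes are super-enhancers with their rank, and the colour gives the signal per bp. The super-enhancer of SYK covered the whole gene, those of CD79A and CD79B lay outside their short genes, and BLK had none.

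The receptor chains had 1 super-enhancer each, and both lay outside the gene. CD79A (chromosome 19, 41877279 to 41881372) is 4.09 kb long, and its super-enhancer began 23.8 kb beyond the gene end (41905132 to 41952352). It ranked 159 with a signal of 57722, held 10 constituent peaks over 47.2 kb and overlapped ARHGEF1 and ERFL. With a signal of 1.22 per bp it was the densest of the 16 and ranked 85 of 2615 on that scale. The start of ERFL lay inside it, and 8 protein-coding genes, RPS19 and CD79A among them, lay within 50 kb of it. The super-enhancer of CD79B (chromosome 17, 63928738 to 63932336, minus strand) lay 7.04 kb upstream of the gene start, within SCN4A, a muscle sodium channel gene (63939380 to 63961891). It was much weaker in sum, with rank 2257 and a signal of 12356, which is 1.16 times the cutoff of the table, and it held 4 constituents over 22.5 kb. Per bp its signal was 0.549, less than that of CD79A and above the median of 0.343 over all super-enhancers. CD79B had the nearest start to it. By the study's methods, peaks within 2500 bp of a transcription start site were left out before stitching, and that margin spans most of either gene.

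SYK, the kinase that docks on the phosphorylated receptor chains, had the highest rank of the 10 genes. Its single super-enhancer ranked 38, with a signal of 88113 (8.30 times the cutoff) and 32 constituents over 141 kb (chromosome 9, 90770074 to 90911236). It started 31.7 kb upstream of the gene, covered the gene completely (90801787 to 90898549) and ended 12.7 kb beyond it. Introns made up 64.9% of the region, exons 3.69% and sequence outside any protein-coding gene 31.5%. No other protein-coding gene lay within 50 kb of it. Its signal per bp was 0.624, which ranked 442 of 2615, so SYK combined a long region with a density above the median. The Src-family kinases LYN and BLK differed from each other. LYN (chromosome 8, 55879835 to 56014169) had 3 super-enhancers that together reached from 132 kb upstream of its start to 155 kb downstream of it and covered 83.6% of the gene. Their signals were 56912, 43419 and 18954, at ranks 166, 320 and 1376. The middle one (55888857 to 55978014, 26 constituents) ran from intron 1 to intron 10 of the canonical transcript, and LYN was the only protein-coding gene within 50 kb of it. The strongest (55747853 to 55875116, 27 constituents) lay 4.72 kb upstream of LYN over TMEM68 and TGS1 and included the starts of both. The weakest (55991001 to 56034998, 10 constituents) began in intron 10 and passed the gene end. Signal per bp was similar among the 3, at 0.447, 0.487 and 0.431. The summed signal of 119285 placed LYN above 98.8% of the genes with any super-enhancer. That sum grows with the number of regions and included the 56912 of the region over TMEM68 and TGS1. It also included the 18954 of the weakest region, whose nearest start was that of RPS20. BLK, a Src-family kinase largely restricted to the B lineage (chromosome 8, 11486894 to 11564599), had no super-enhancer within 50 kb. The nearest one, of rank 179 over XKR6, was 294 kb away. The table lists only regions above its cutoff, so this says nothing of weaker acetylation at BLK.

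**Figure D2:**
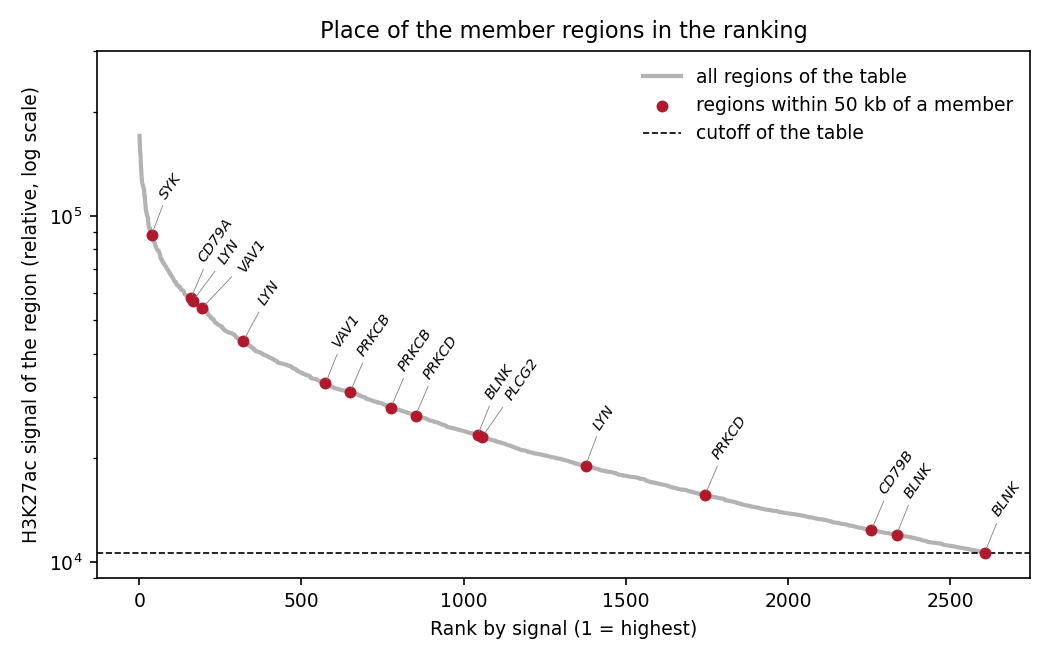
The grey line gives the signal of all 2615 super-enhancers by rank on a log scale, with the 16 at the B-cell receptor genes as red points and the cutoff of the table as a dashed line. Regions of SYK, CD79A, LYN and VAV1 (4 of the 16) belonged to the 262 strongest, and the last one of BLNK lay on the cutoff.

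VAV1, an exchange factor for small GTPases, had 2 super-enhancers. The stronger (chromosome 19, 6775165 to 6863557) ranked 194 with a signal of 54237 and 29 constituents over 88.4 kb. It began in intron 1, 2.46 kb after the start, and covered 97.1% of the gene (6772708 to 6857366). The other (6608818 to 6731268, rank 574, signal 32792) lay 41.4 kb upstream, over TNFSF14, C3 and GPR108, and starts of other genes were nearer to it than that of VAV1. Signal per bp was 0.614 in the gene and 0.268 over its neighbours. Sequences are shown for regions and promoters with matches to 8 short motifs of transcription factors, and capitals mark the matches on either strand. The motifs are the OCT octamer ATGCAAAT, PU.1 GAGGAAG, AP-1 TGANTCA, the cyclic AMP element (CRE) TGACGTCA, the E-box CAGCTG, the TATA box TATAAA, NF-kB (GGGA and CC spaced by any 4 bases) and EBF1 (TCCC and GGGA spaced by any 2 bases). The 250 bases before the VAV1 start, which lay just outside the stronger region, held 2 PU.1 matches, from -229 to -223 and from -11 to -5 relative to the start.
VAV1 upstream, chr19:6772458-6772707, plus strand: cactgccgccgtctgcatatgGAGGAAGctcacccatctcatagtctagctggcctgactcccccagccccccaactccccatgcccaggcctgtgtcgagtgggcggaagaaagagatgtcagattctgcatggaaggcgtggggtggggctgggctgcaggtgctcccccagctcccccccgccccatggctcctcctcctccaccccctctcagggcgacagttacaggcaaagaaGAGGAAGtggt

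BLNK, the adaptor that joins SYK to PLCG2, had 3 small super-enhancers (gene at chromosome 10, 96189171 to 96271587, minus strand). Their ranks were 1043, 2335 and 2607, with signals of 23220, 11999 and 10646. The last was 1.00 times the cutoff and was 1 of 119 super-enhancers no more than 5% above it, so its place in the table is the least certain of the 16. The first (96279244 to 96308775, 6 constituents over 29.5 kb) lay 7.66 kb upstream of BLNK and overlapped DNTT, the gene of terminal deoxynucleotidyl transferase, with the DNTT start inside. The second (96244400 to 96258031, 3 constituents over 13.6 kb) was within the gene, from intron 1 to intron 2, and was the shortest of the 16. The third (96185988 to 96224408, 9 constituents over 38.4 kb) ran from intron 5 past the gene end into ZNF518A. By signal per bp the order was different: the intron 1 to 2 region had 0.880 (194 of 2615), the upstream region 0.786 (250 of 2615) and the 3' region 0.277 (1732 of 2615). BLNK thus held 2 of the 3 regions at these genes that were among the 262 densest of the table, with that of CD79A as the third.

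Constituents were windows of 401 bp, and the first and last of them form the edges of a region, so edge peaks can be located although the table does not list single peaks. Since the intronic region of BLNK had only 3 constituents, its 2 edge peaks are most of what was stitched there, and the middle 201 bp of each is shown. The edge peak farther from the BLNK start, 26.99 kb into the gene, held a CRE and a PU.1 match. The nearer one, 13.8 kb into the gene, held an AP-1 match. Both are printed on the strand of BLNK.
BLNK intronic edge peak near the start, chr10:96257731-96257931, minus strand: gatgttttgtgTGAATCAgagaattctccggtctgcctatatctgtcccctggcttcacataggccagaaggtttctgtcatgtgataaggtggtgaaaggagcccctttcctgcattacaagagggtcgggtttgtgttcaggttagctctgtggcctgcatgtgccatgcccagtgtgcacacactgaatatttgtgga
BLNK intronic edge peak far from the start, chr10:96244500-96244700, minus strand: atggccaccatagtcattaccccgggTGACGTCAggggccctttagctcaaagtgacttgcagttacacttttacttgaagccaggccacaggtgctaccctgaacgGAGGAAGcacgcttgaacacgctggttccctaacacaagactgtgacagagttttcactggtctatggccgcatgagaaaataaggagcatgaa

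PLCG2, the phospholipase that produces diacylglycerol and inositol trisphosphate, had 1 super-enhancer, which lay wholly within the gene (chromosome 16, 81870931 to 81943895; gene 81779279 to 81962685). It ranked 1058 with a signal of 23035 and held 30 constituents over 73.0 kb. It ran from exon 7 to intron 30 and covered 39.8% of the gene, and 13.8% of its bases were exonic. Its first edge lay 91.7 kb after the annotated start, so it was in the 3' part of the gene, and the nearest protein-coding start was that of SDR42E1. Per bp its signal of 0.316 was below the median of the table, although at 4.11 constituents per 10 kb its peaks were the most closely spaced of the 16. RefSeq places a PLCG2 start 40238 bp upstream of the GENCODE start, which would lengthen that distance. The edge peak in intron 30 held an AP-1 match followed after 1 base by an octamer match, a motif bound by OCT2, which is enriched in B cells, and by the broadly expressed OCT1.
PLCG2 edge peak, chr16:81943595-81943795, plus strand: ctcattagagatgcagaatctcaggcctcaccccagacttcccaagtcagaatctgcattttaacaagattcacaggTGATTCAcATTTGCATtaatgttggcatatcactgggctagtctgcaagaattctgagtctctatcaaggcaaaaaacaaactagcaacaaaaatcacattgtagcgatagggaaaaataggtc

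The protein kinase C genes PRKCB and PRKCD had 2 super-enhancers each. PRKCB, the isoform that links PLCG2 to NF-kB in B cells, is the longest of the 10 genes (chromosome 16, 23835983 to 24220611), and both of its super-enhancers lay wholly inside it with no other protein-coding gene within 50 kb. The first (23839997 to 23924213, rank 776, signal 27918, 23 constituents) lay in intron 2 and began 4.01 kb after the start. The second (23999852 to 24164005, rank 650, signal 30910, 31 constituents) ran from intron 3 to intron 10. Although the second had the higher sum, its signal per bp was 0.188, the lowest of the 16, against 0.332 for the first. PRKCD, an isoform known from mouse studies for a role in B-cell tolerance, is shorter (chromosome 3, 53156009 to 53192717). Its stronger super-enhancer (53066228 to 53158987, rank 852, signal 26501) lay mainly upstream, with 3.21% of its bases in PRKCD. It held the GENCODE start of PRKCD but ended upstream of the canonical transcript. The RefSeq starts of PRKCD (53161209, 53161507 and 53168703) lay beyond its end. The other super-enhancer (53191106 to 53220786, rank 1744, signal 15585) began in intron 18 and extended beyond the gene end. Together they covered 12.5% of PRKCD, and the signal per bp was 0.286 upstream and 0.525 at the 3' end. The 250 bases before the PRKCB start held an octamer match from -80 to -73 and 2 complete E-box matches. An octamer stood in 1.66% of 21571 promoter windows of protein-coding genes in RefSeq (GRCh38.p14), each from 250 bases before to 50 bases after a start.
PRKCB upstream, chr16:23835733-23835982, plus strand: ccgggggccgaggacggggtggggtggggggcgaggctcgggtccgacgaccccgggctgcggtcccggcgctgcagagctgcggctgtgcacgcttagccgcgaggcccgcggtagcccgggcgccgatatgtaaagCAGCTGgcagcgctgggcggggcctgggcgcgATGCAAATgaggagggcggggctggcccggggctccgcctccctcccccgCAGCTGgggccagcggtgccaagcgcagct

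As a group, the 16 super-enhancers summed to a signal of 534319 over 1208 kb, 0.791% of the signal of the table in 0.612% of its regions. Their median signal was 27210 against 19736 over all regions, their median length 78.6 kb against 60.7 kb, and their median number of constituents 24.5 against 16. A longer region is more likely to reach a gene window, so the rule of assignment favours long regions, and these medians were not corrected for it. Signal per bp ranged from 0.188 to 1.22 around a median of 0.467 and was above the median of all regions in 10 of the 16. Of the 16, 11 touched the body of their gene, 5 lay wholly inside it, and 4 had no other protein-coding gene within 50 kb. In 9 of the 16 the member had the nearest protein-coding start or shared that place, and for the other 7 a neighbour had it. Some of those 7 still overlapped the member. The PLCG2 region and the longer PRKCB region lay wholly inside their gene, and the weakest LYN region lay partly inside. Overlap with the extended gene body was itself the rule of assignment, and these counts were not made over all 2615 regions. They describe the 16 and do not set them apart from other regions. The highest-ranked super-enhancer of each gene had a median rank of 650 over the 9 genes, against 1184 over all 6140 genes with a super-enhancer. That rank is the best of several where a gene had 2 or more regions, which held for 5 of the 10 genes and 7.34% of all genes.

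**Figure D3:**
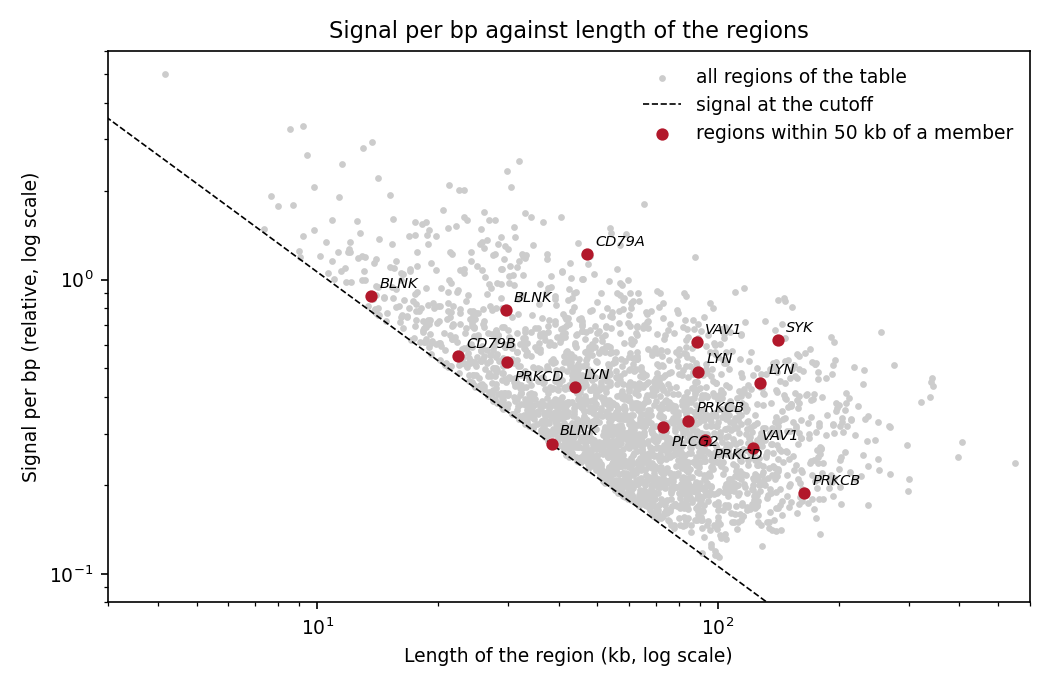
Signal per bp is plotted against region length for all 2615 super-enhancers (grey, of which 2 lie outside the axes) and the 16 at the B-cell receptor genes (red), both on log scales, with a dashed line where the signal equals the cutoff. The CD79A region stood high for its length of 47.2 kb at 1.22 per bp, the SYK region combined 141 kb with 0.624 per bp, and the longer PRKCB region was the least dense at 0.188.

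Motif matches in the edge peaks of these regions were counted beside those in the whole table, with no test. Among the 32 edge peaks, 2 held an octamer (6.25%, against 2.43% of 5229 edge peaks of the table), 7 a PU.1 motif (21.9% against 16.2%), 9 an NF-kB motif (28.1% against 22.9%) and 4 an AP-1 motif (12.5% against 11.6%). The E-box was found in 4 (12.5% against 24.9%), the TATA box in 12 (37.5% against 16.9%), EBF1 in 1 (3.12% against 1.63%) and the CRE in 1 (3.12% against 0.229%). Over whole regions the octamer had a median of 0.0824 matches per kb against 0.0581 in all regions and was above that median in 12 of the 16, and PU.1 was above its median in 11. The TATA box was likewise above its median in 11 of the 16 (1.01 against 0.873 matches per kb) and AP-1 in 10. EBF1, the E-box and NF-kB were above theirs in 8 of the 16, and the CRE was above its median of 0 in 4. Median GC content was 44.2% in the 16 against 45.7% in all regions, with 7 of the 16 above the latter. The regions of CD79A and CD79B stood out among the 16 for their GC content, at 57.7% and 57.1%, above 97.1% and 96.5% of all regions, and for PU.1 matches, at 0.551 and 0.666 per kb. They held no octamer. The octamer was densest in the third LYN region, at 0.227 per kb, more than in 99.7% of all regions. These are descriptions of letters in the reference sequence; binding was not measured here.

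The promoter windows of RefSeq matched 7 of the 10 genes with 11 starts: CD79A, SYK, BLNK, PLCG2, PRKCB, PRKCD and VAV1. A gene was counted when any of its windows held the motif, and SYK and PRKCD had several windows each. The shares given beside the genes are per single window, so the 2 are not on the same footing. An octamer was found in PRKCB alone, a PU.1 motif in SYK, PLCG2 and VAV1 (14.4% of all promoter windows), and an E-box in BLNK, PLCG2, PRKCB and PRKCD (18% of all). The NF-kB motif was found in CD79A and PRKCD (29.1% of all), and EBF1, AP-1, the CRE and the TATA box in none (1.39%, 6.18%, 2.29% and 9.45% of all).

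Other components of the pathway were counted from a list of 40 genes, which was drawn up with earlier results of these data known. Of these, 25 (62.5%) had a super-enhancer within 50 kb, against 30.7% of all genes, and 22 had a region over the gene body, where the share of all genes was 17.3%. The 3 coreceptor genes had none, with CR2 519 kb and CD81 112 kb from the nearest region. Of the inhibitory receptors, CD72 had a region of rank 382 over the gene, FCGR2B had one of rank 2170 that lay 36.9 kb away over FCRLB, and CD22 had none. BTK, the kinase that acts beside BLNK on PLCG2, had none, and the nearest region on chromosome X was 18228 kb away. Of the adaptors 7 of 10 had a region, of the genes of lipid and calcium signalling 4 of 7, and of the phosphatases and ubiquitin ligases 3 of 4. VAV2 (rank 121), VAV3 (rank 1842) and RAC2 (rank 642) all had a region, so every Vav gene had a region in its body. Among the 5 highest were NFATC2 (rank 30, signal 93027), FGR (rank 56, 79545), SH3BP2 (rank 104, 66255) and PIK3CD (rank 108, 64794). The regions counted for FGR and SH3BP2 lay 18.3 and 21.7 kb away from them over other genes, although both also had a weaker region in the gene body, whereas those of NFATC2 and PIK3CD overlapped the gene. Of the genes downstream of PRKCB 3 of 5 had a region, and BCL10 and MALT1 had none.

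The T-cell receptor uses related proteins for the same steps, and 12 of these genes gave a comparison within the table. Of them 5 (41.7%) had a super-enhancer within 50 kb and 3 (25%) in the gene body, against 30.7% and 17.3% of all genes, so the list as a whole was not short of regions. None of CD3D, CD3E and CD3G, the counterparts of CD79A and CD79B, had a region, and neither did ZAP70 (relative of SYK), LAT, LCP2 (relative of BLNK) or PRKCQ. CD247 had a region of rank 1738 (signal 15642) shared with POU2F1. LCK and FYN had a region in the gene body (ranks 2048 and 2279), and their strongest ones lay 13.0 kb away over HDAC1 (rank 1303, signal 19798) and 47.4 kb away over TRAF3IP2 (rank 1835, signal 14901). PLCG1, the relative of PLCG2, lay 2.47 kb from the region of rank 11 (signal 123021), which was over TOP1. The best signal of PLCG1 was above that of every member, the highest of which was 88113 for SYK. The best signals of the other counterparts were below those of 8 of the 9 members with a region, CD79B being lower. Like that of PLCG1, the best regions of CD79A, CD79B, LYN and BLNK lay outside the gene over neighbours. The stronger of the BLNK regions in the gene body had a signal of 11999, below the 15642 of CD247. The counts of 9 of 10 and 5 of 12 were not tested against each other.

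**Figure D4:**
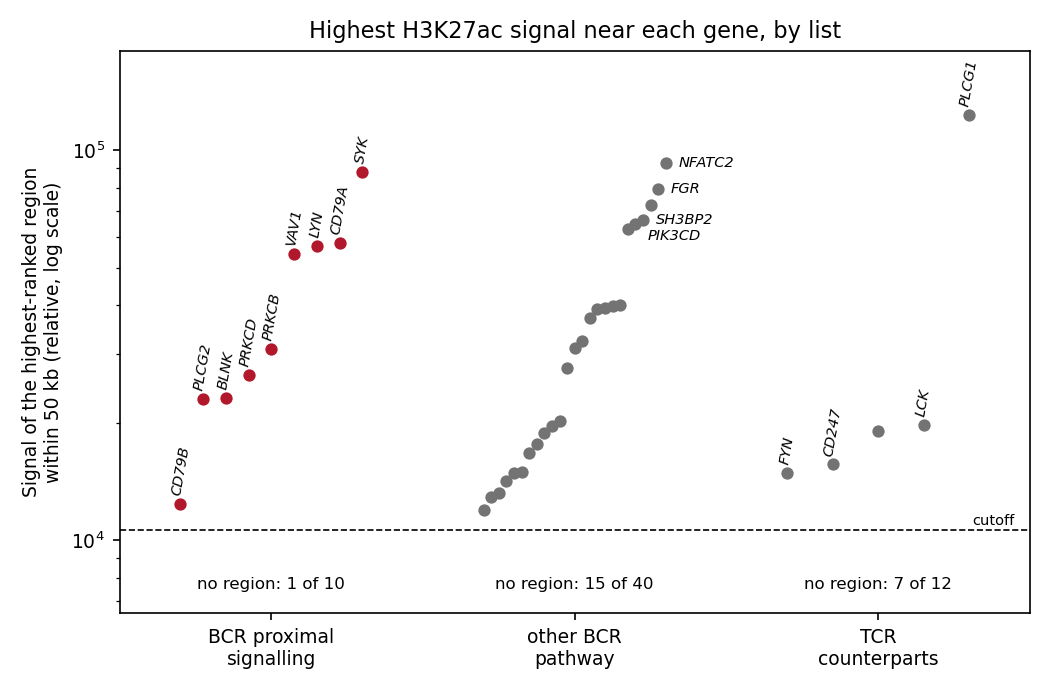
Points give the signal of the highest-ranked super-enhancer within 50 kb of each gene on a log scale, for the 10 B-cell receptor proximal signalling genes, 40 other genes of the B-cell receptor (BCR) pathway and 12 counterparts of the T-cell receptor (TCR), with genes without a region counted below the dashed cutoff. No region was found for 1 of 10, 15 of 40 and 7 of 12 genes, and the highest value of the third list was the region over TOP1 beside PLCG1.

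The B-cell label of the line was checked in the same way. Of 8 B-cell markers, MS4A1, PAX5, EBF1, CD40 and BCL6 had a super-enhancer within 50 kb and the other 3 did not. Of 10 markers of other lineages, CSF1R (rank 2511) had a region, and that of EPCAM (rank 496) lay 40.1 kb away, and the other 8 had no region. A super-enhancer near a gene is not a measure of its expression, which was not analysed here.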

How the data were processed

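CUT&RUN was performed on 3 histone marks in 4 genotypes of OCI-Ly7 with 2 replicates each, and the deposited table covers H3K27ac in WT. Per the study's methods, the authors aligned reads with nf-core cutandrun on hg38 with IgG controls, normalized depth to reads at promoters and ran ROSE, leaving out peaks within 2500 bp of a transcription start site. Per the file header, peaks were stitched within 12500 bp. The deposited signal is the ROSE signal summed over a region in 1 column that combines the 2 WT libraries; its unit is not in the header, so it is a relative signal within this table. Depth per library is not given in the table and no interval was computed. Other deposited columns give positions, number and length of constituents, and rank.

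All 2615 rows were above the header cutoff of 10617. Regions were assigned to protein-coding genes of GENCODE version 44 (hg38) by overlap of at least 1 bp with the body extended by 50 kb. Signal per bp is the signal divided by end minus start. Exon and intron numbers follow the canonical transcript. Edge peaks are the first and last 401 bp of a region, and motifs were searched on both strands. The genes and lists were chosen with earlier results of these data known. All 10 genes are named with every region; among the other pathway genes the 5 with the highest signal were named by rule and further ones after their values were seen, and the printed sequences were also chosen after the motif matches were seen. Assignment and motif search were checked on planted regions and motifs. Python 3.11.15, numpy 2.4.6, pandas 2.3.3 and matplotlib 3.10.9 were used. The comparison of C, K and CK with WT needs values per sample and was not run. Some genes of the lists and some sequences are counted but not reported here by name. Alternatives changed the extension, the rows used, the overlap and the ranking measure.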

Additional observations from a re-analysis of the deposited data

How the results depend on the processing

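Of 29 alternative settings of the counts and of the median rank, 22 stayed within 1.5 times the value given and 7 did not. The number of B-cell receptor proximal signalling genes with a region went from 7 to 9 of 10 over 8 alternatives, while the share of all genes went from 13.1% to 39.7%. It was 7 with no extension, with regions of at least 10 constituents, and when a region counted only for the gene with the nearest start. The count of other pathway genes fell from 25 to 15 of 40 among the 1307 regions with the highest signal, where 16.8% of all genes had a region. The count of T-cell receptor counterparts, 5 of 12, was 3 with no extension, with 50 kb around the gene start in place of the body, and with 50% or more of a region in the extended body (25% of the list, against 17.3%, 25.9% and 23.1% of all genes). It was 2 when the 1307 strongest regions alone were used and when only the nearest start counted (16.7% of the list, against 16.8% and 13.1% of all genes). The construction of these settings admits fewer regions or smaller windows. The median best rank of the members, 650 by signal, was 383 when regions were ranked by number of constituents; the cause was not tested. Ranking by signal per bp changed which region came first for LYN, BLNK, PRKCB and PRKCD and gave a median of 566.

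No paired analysis was possible because both WT replicates were combined in 1 column without replicate numbers. Leaving out a replicate, a replicate block and another pseudocount were not run for the same reason. Without values per library the spread behind any rank is unknown, which bears most on the BLNK region at the cutoff.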

Other observations

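In 2609 of 2615 regions the summed constituent length was a whole multiple of 401 bp, and in 1304 of these it held more windows than the stated number of constituents. A protein-coding start lay inside 78.4% of the regions with such extra windows and inside 9.04% of the 1305 without. Of the 16 regions at the B-cell receptor genes, 4 had extra windows. These were the LYN region over TMEM68 and TGS1 (1 extra), the BLNK region over DNTT (1), the upstream PRKCD region (3) and the VAV1 region over TNFSF14 and C3 (3), and all 4 held starts of other genes. The SYK region included the SYK start and the CD79A region the start of ERFL, and neither had an extra window. This pattern was noticed after the values were seen.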
